A study of Mus musculus with 16 samples.

Results

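CD8+ T cells sorted from MC38 colon carcinomas of mice given anti-PD1 antibody were compared between *Aire*-/- and *Aire*+/+ hosts, gene by gene. A cell barcode was kept when it held at least 1 UMI (a counted RNA molecule) of Cd8a or Cd8b1 and at least 1 of Cd3d, Cd3e or Cd3g, no more than 1 of the macrophage genes C1qa, C1qb and C1qc together, and 0 of Siglech, a gene of plasmacytoid dendritic cells. This kept 2056 of 2214 barcodes from *Aire*-/- mice (92.9%) and 2067 of 2222 from *Aire*+/+ mice (93.0%), or 4123 of the 37609 barcodes of the series. The study sequenced CD45+ and CD8+ cells of tumors and spleens from C57BL/6 mice of both genotypes after anti-PD1 or a rat isotype control antibody, as 16 single-cell libraries with 1 library per genotype, treatment, tissue and sort. MC38 cells were implanted under the skin, antibodies were given at 5 mg per kg, and tissues were taken on day 19. The study's methods give an age of 8 weeks at purchase, and say that tumors of 4 to 6 mice went into each condition. Each genotype here is thus 1 library of pooled animals, with no replicate, so no test between genotypes was possible and every difference is a description of these libraries. The *Aire*-/- mice lack Aire in the whole body, not in the thymus alone.

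Aire is a transcriptional regulator of medullary thymic epithelial cells, where it turns on genes of other tissues so that developing T cells reactive to them are deleted or diverted. Mature CD8+ T cells make little or none of it themselves. In tumors, such cells meet antigen, make granzymes, perforin and cytokines, and acquire inhibitory receptors such as PD1, whose blockade releases their activity.

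Aire itself was almost unmeasured, with 2 UMIs in *Aire*+/+ cells after isotype antibody, 1 in *Aire*-/- cells after isotype antibody, 2 in *Aire*+/+ cells after anti-PD1 and 0 in *Aire*-/- cells after anti-PD1. Every one of these counts is at or under a floor of 3 counts per library, so they cannot check the genotype, and no fold is given. Depth differed a little between the genotypes. The *Aire*+/+ cells held 24916846 UMIs in all, with a median of 10123 UMIs and 2701 genes per cell, and the *Aire*-/- cells held 21580728, with medians of 8822 and 2462.5. Mitochondrial RNA made up 2.14% of the *Aire*+/+ and 2.02% of the *Aire*-/- UMIs. The same barcode sequence occurred in both libraries 6 times, against 0 to 12 times over the 28 pairs of the 8 libraries used.

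The cells carried the RNA of CD8+ T cells. Of 11 markers, the least often found was Cd5, an inhibitor of antigen receptor signaling, in 63.6% of *Aire*+/+ and 56.1% of *Aire*-/- cells. The most often found were Cd8b1 in *Aire*+/+ cells and Cd3e in *Aire*-/- cells, each in 99.8%, although the choice of cells fixes those shares. Among markers the choice did not use, Thy1 was found in 99.4% of *Aire*+/+ and 98.7% of *Aire*-/- cells, and Nkg7, a granule protein of killer cells, in 99.7% and 99.6%. Among markers of other lymphocytes, Cd4 was found in 1.06% of *Aire*+/+ and 1.07% of *Aire*-/- cells, and Cd79a, a part of the B cell receptor, in 1 cell and 0 cells. Ighm, of the B cell list, was found in 142 and 200 cells, and Fcer1g, of the NK cell list, in 11.5% and 13.2%.

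Most genes had like levels in both genotypes. A level is the UMIs of a gene per 1000000 UMIs of the cells compared (CPM), and 8808 genes had at least 200 UMIs over both libraries together. Where 4 levels are given in a row, they are those of *Aire*+/+ and *Aire*-/- cells after isotype antibody and then of *Aire*+/+ and *Aire*-/- cells after anti-PD1. The median log2 ratio of the 8808 genes, *Aire*-/- over *Aire*+/+, was −0.01, with a 5th percentile of −0.33 and a 95th of 0.32. At least 1.5-fold higher in *Aire*-/- cells were 97 genes (1.1%), and at least 1.5-fold lower were 87 (0.988%); "rose" and "fell" are used below for genes past 1.5-fold, in this pair unless another is named. The genes that rose included an integrin and a chemokine receptor of tissue-homing cells, granzyme A, Ccl5, Tnf and genes that interferons induce, and those that fell included Il2, Csf2, Ccr7, Rgs16, Tsc22d3 and major histocompatibility class II genes. Of the latter, H2-Aa and H2-Eb1 were higher without the 10 barcodes richest in each, a choice made on their own UMIs. Csf2 was higher in the CD45+ sort, and Ccr7 was nearly even there. Il2 rested on so few cells that its direction cannot be judged without its richest barcodes. Intervals on levels and ratios are exact 95% intervals of the UMI counts (Poisson, and binomial conditional on the sum) and cover counting error only, not differences between mice or between cells.

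**Figure D1:**
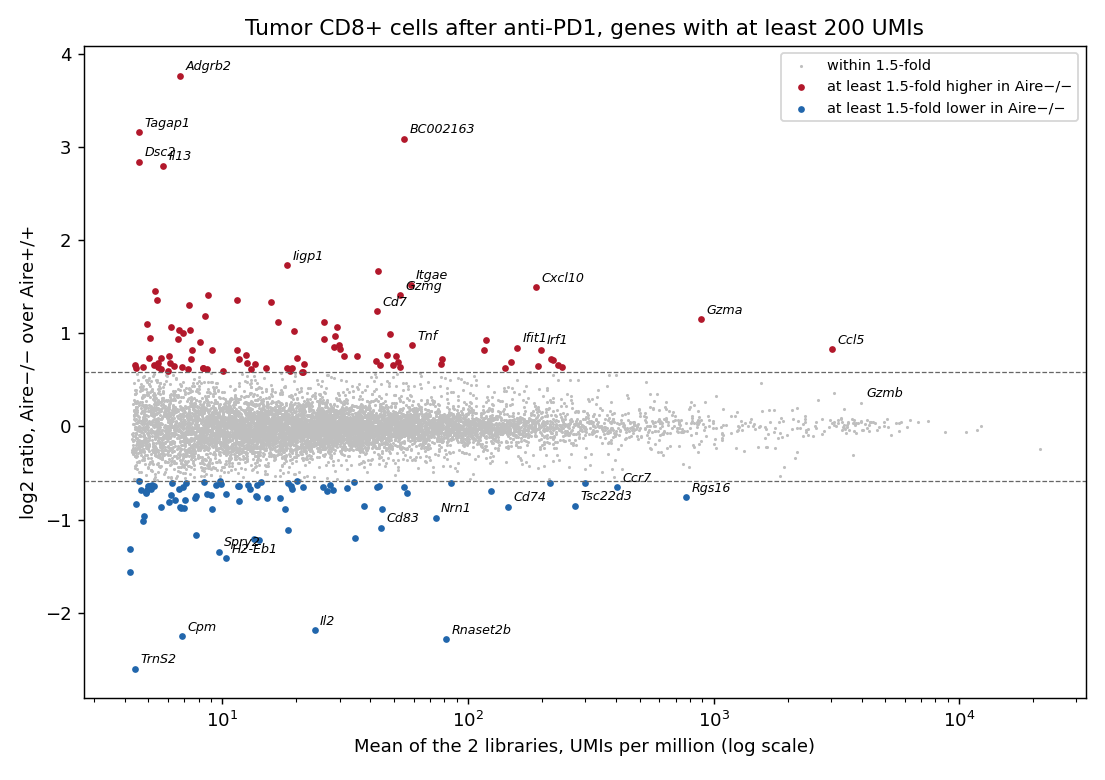
Each point is 1 of 8808 genes, placed by its mean CPM over both libraries (log scale) and its log2 ratio, *Aire*-/- over *Aire*+/+, in tumor CD8+ cells after anti-PD1. Dashed lines mark 1.5-fold; the 97 red genes lie above and the 87 blue genes below, and Ccl5, Gzma and Rgs16 are the most abundant of those labelled beyond the lines.

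Among the genes of killing, granzyme A stood apart. Gzma, a serine protease of cytotoxic granules, was at 397 CPM in *Aire*+/+ and 1020 CPM in *Aire*-/- cells after isotype antibody, and at 554 and 1229 CPM after anti-PD1. Both *Aire*-/- libraries were above both *Aire*+/+ libraries. After anti-PD1 the level was 2.22-fold higher in *Aire*-/- cells (log2 ratio 1.15, 95% interval 1.12 to 1.18). More cells also held it, 30.5% of *Aire*-/- against 21.4% of *Aire*+/+ cells. With every cell thinned at random to 3000 UMIs, so that depth is equal, the shares were 26.4% (Clopper-Pearson 95% interval 24.5 to 28.3) and 16.4% (14.9 to 18.1). Tumor macrophages of the same conditions, a type that should lack Gzma, held it in 1.62% (*Aire*-/-, 185 barcodes, median 11565 UMIs) and 0.810% (*Aire*+/+, 741 barcodes, median 14914 UMIs). They came from the CD45+ libraries, where the chosen T cells were 33.8% (*Aire*-/-) and 9.32% (*Aire*+/+) of barcodes, against 92.9% and 93.0% in the CD8+ libraries. Here and below, macrophage shares therefore do not measure free T cell RNA in the CD8+ libraries. Gzmb, the main granzyme of effector cells, was at 3529 and 4211 CPM after isotype antibody, *Aire*+/+ first, and at 3636 and 4341 CPM after anti-PD1 (log2 ratio 0.26), so the *Aire*-/- libraries were again the higher, but within 1.5-fold. The pore former Prf1 was at 599, 584, 485 and 618 CPM in the same order (0.35), lowest in *Aire*+/+ cells after anti-PD1. Gzmk, typical of early effector and memory-like cells, was at 60.9, 72.7, 86.3 and 125 CPM (0.54). It was highest in *Aire*-/- cells after anti-PD1, and passed 1.5-fold under 5 other settings, thinned cells among them (0.68).

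Of other granule genes, Gzmc and Serpinb6b were lower in *Aire*-/- cells and Gzmg rested on few cells. Gzmc, found in strongly stimulated killers, was at 2784, 2478, 2219 and 1645 CPM (log2 ratio −0.43), lowest in *Aire*-/- cells after anti-PD1. Gzmg was at 116, 103, 28.9 and 76.6 CPM, so it was low in *Aire*+/+ cells after anti-PD1 alone. Its ratio of 1.41 came from few cells, since the 10 barcodes with the most UMIs held 89.8% of its UMIs in *Aire*-/- and 71.5% in *Aire*+/+ cells, and without them the ratio was −0.08. Serpinb6b, an inhibitor of granule proteases, fell (−0.61), and the death ligand Fasl was even between genotypes (−0.01). Of 20 cytotoxic granule and death ligand genes, 2 rose and 1 fell, with a median of 0.12 against −0.01 over all 8808 genes. Of the 8808, 1.1% rose and 0.988% fell.

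Of the cytokine and chemokine list, Ccl5 and Tnf rose, and Il2, Csf2 and Tnfsf14 fell, while Il13 and Cxcl10, outside that list, rose too. Ccl5, a chemokine that effector T cells release, was at 1473 and 1943 CPM after isotype antibody and at 2187 and 3886 CPM after anti-PD1, *Aire*+/+ first. It was highest in *Aire*-/- cells after anti-PD1, 1.78-fold above *Aire*+/+ cells (log2 ratio 0.83, 0.81 to 0.84). Tnf, the inflammatory cytokine tumor necrosis factor, was at 46.1, 42.0, 41.9 and 76.5 CPM in that order. The first 3 libraries were alike and *Aire*-/- cells after anti-PD1 were high (0.87, 0.76 to 0.98). Macrophages held Ccl5 in 61.6% (*Aire*-/-) and 46.6% (*Aire*+/+) of barcodes and Tnf in 61.1% and 69.4%, so they are no background for either, and the part of their free RNA was not tested. Csf2, the growth factor of granulocytes and macrophages, was at 52.5, 31.2, 57.7 and 31.2 CPM, low in both *Aire*-/- libraries (−0.89, −1.02 to −0.75). After anti-PD1, 145 *Aire*+/+ and 99 *Aire*-/- cells held it, and the 10 with the most UMIs held 57.9% and 56.5% of them. Without those barcodes the ratio was −0.84 (−1.04 to −0.63). The shares of cells after thinning had overlapping intervals, 3.92% (3.12 to 4.85) and 3.06% (2.36 to 3.90). In the CD45+ sort after anti-PD1 the direction was the opposite, at 14.8 CPM in *Aire*+/+ and 51.2 CPM in *Aire*-/- cells (1.79, 1.27 to 2.36). Il2, the growth factor of T cells, was at 7.72, 2.72, 38.9 and 8.53 CPM, with *Aire*+/+ cells after anti-PD1 far above the rest (−2.19, −2.43 to −1.96). Only 15 *Aire*+/+ and 17 *Aire*-/- cells held Il2, and the 10 with the most UMIs held 99.5% and 96.2% of them. Without those barcodes 5 and 7 UMIs were left (0.69, −1.18 to 2.69). That remainder follows from the number of cells with Il2 and gives no direction. Il13, a cytokine of type 2 responses, was at 4.30, 7.57, 1.44 and 10.1 CPM and was found in 14 *Aire*+/+ and 48 *Aire*-/- cells after anti-PD1 (2.80, 2.29 to 3.35). The 10 with the most UMIs held 88.9% and 69.6% of them, and without those barcodes 4 and 66 UMIs were left (4.25, 2.83 to 6.17). As a fixed 10 were taken from 14 and from 48 cells, this second ratio is raised by the unequal cell numbers. It does not show that the first is stable. Tnfsf14, a member of the tumor necrosis factor family chosen after its value was seen, fell by 0.60 on the log2 scale, and by 0.58, within 1.5-fold, without cycling cells. Of 18 cytokine and chemokine genes, 2 rose and 3 fell (median 0.12), where 1.1% of all tested genes rose and 0.988% fell.

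Itgae, a gene of tissue retention, rose. It encodes the αE chain of CD103, an integrin that binds E-cadherin and holds T cells in epithelia. Itgae was at 17.8 CPM in *Aire*+/+ and 44.4 CPM in *Aire*-/- cells after isotype antibody, and at 30.2 and 86.6 CPM after anti-PD1. Both *Aire*-/- libraries were above both *Aire*+/+ libraries, and *Aire*-/- cells after anti-PD1 were the highest, 2.87-fold above *Aire*+/+ cells (log2 ratio 1.52, 1.40 to 1.64). Cells with a UMI were 27.3% against 11.7%. Thinned to equal depth, they were 19.99% (18.3 to 21.8) against 7.55% (6.45 to 8.77). Macrophages, which should lack it, held it in 0.541% and 0.270% before thinning. Its partner chain Itgb7, chosen after its values were seen, was at 99.1, 119, 111 and 172 CPM (0.63), again highest in *Aire*-/- cells after anti-PD1.

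Among other migration receptors, Cxcr3 and S1pr1 rose, and Ccr7 and Gpr183 fell. Cxcr3, the receptor for Cxcl9 and Cxcl10, was at 33.8, 43.2, 39.6 and 64.1 CPM (log2 ratio 0.70), and was found after thinning in 19.8% (18.1 to 21.6) of *Aire*-/- and 13.1% (11.6 to 14.6) of *Aire*+/+ cells after anti-PD1. The unthinned shares were 34.9% and 26.8%, and in macrophages 1.62% and 8.23%. S1pr1, which leads T cells out of tissues toward blood and lymph, was at 23.7, 27.0, 21.2 and 38.7 CPM (0.87), so *Aire*-/- cells after anti-PD1 alone were high. Cxcr6, a receptor of resident T cells, was nearly even at 791, 802, 768 and 898 CPM (0.23). Ccr7, the lymph node homing receptor, was at 428, 465, 495 and 315 CPM and was lowest in *Aire*-/- cells after anti-PD1 (−0.65, −0.69 to −0.61). Its cells were 21.7% of *Aire*-/- and 32.0% of *Aire*+/+ cells, and 16.9% (15.3 to 18.6) and 25.2% (23.3 to 27.1) after thinning, against 2.16% and 1.48% unthinned in macrophages. In the CD45+ sort after anti-PD1, Ccr7 was nearly even, at 388 CPM in *Aire*+/+ and 376 CPM in *Aire*-/- cells (−0.05, −0.16 to 0.07). Gpr183, an oxysterol receptor that positions lymphocytes and was chosen after its value was seen, fell (−0.60), but not with thinned cells or with the mean of per-cell CPM (−0.50 in each). Of 20 chemokine and migration receptor genes, 4 rose and 2 fell (median 0.15), where 1.1% of all tested genes rose and 0.988% fell.

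The tissue residency genes as a list did not move with Itgae in the anti-PD1 tumor pair. In the other pairs the median log2 ratio of the list was 0.03 after isotype antibody, 0.05 in the CD45+ sort and 0.70 in spleen. The medians of all genes there were −0.03, 0.03 and 0.07. In spleen 9 of 9 residency genes were above 0, against 5167 of all 8124 genes. Of 15 with enough UMIs in the anti-PD1 tumor pair, 2 rose, 1 fell and 9 were below 0, and the median was −0.10. Among all tested genes of that pair 1.1% rose and 0.988% fell. Lmna, which encodes nuclear lamins A and C, was the other that rose, at 85.4, 143, 149 and 235 CPM (log2 ratio 0.65). It was lowest in *Aire*+/+ cells after isotype antibody and highest in *Aire*-/- cells after anti-PD1. Prdm1, which encodes the effector transcription factor Blimp-1, fell from 25.9 to 16.5 CPM (−0.65), but was within 1.5-fold under 3 other settings. Its ratio was −0.55 with a strict choice of cells (at least 2 UMIs of each marker group and 0 of the C1q genes and Siglech), −0.56 with no choice (every barcode) and −0.51 with thinned cells. Klf2, a transcription factor that drives S1pr1, was at 398, 317, 410 and 293 CPM (−0.49), low in both *Aire*-/- libraries. Of 20 naive and stem-like T cell genes, 1 rose, S1pr1, and 1 fell, Ccr7, with a median of 0.17.

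Of 36 antigen receptor signaling and immediate early genes, Egr1 and Fos rose and Rgs16 and Tsc22d3 fell, with a median log2 ratio of 0.05. Among all tested genes 1.1% rose and 0.988% fell. Rgs16, a brake on chemokine receptor signaling that activation induces, was at 893, 777, 972 and 575 CPM and was lowest in *Aire*-/- cells after anti-PD1 (log2 ratio −0.76, −0.79 to −0.73). It was found in 63.8% of *Aire*-/- and 75.4% of *Aire*+/+ cells, and after thinning in 48.8% (46.7 to 51.0) and 61.9% (59.7 to 64.0), against 0.541% and 0.945% unthinned in macrophages. Tsc22d3, the glucocorticoid-induced leucine zipper gene, was at 220, 199, 350 and 194 CPM, high in *Aire*+/+ cells after anti-PD1 alone (−0.85, −0.91 to −0.80). The immediate early gene Egr1 was at 77.1, 119, 114 and 185 CPM (0.69), and was highest in *Aire*-/- cells after anti-PD1. Fos, the partner of Jun in the AP-1 factor, was at 260, 200, 189 and 295 CPM (0.64), and was within 1.5-fold with no choice of cells (0.24). Nr4a1, a nuclear receptor induced by antigen, was at 241, 324, 394 and 496 CPM (0.33). Spry2, which dampens receptor tyrosine kinase signaling, was at 12.2, 7.32, 13.9 and 5.47 CPM, low in both *Aire*-/- libraries (−1.34, −1.66 to −1.04). Spry2 is not in the list of 36. The 24 genes of the T cell receptor complex and its proximal kinases held none past 1.5-fold (median −0.06).

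Most inhibitory and costimulatory receptors were within 1.5-fold. Pdcd1, which encodes PD1, was at 669, 801, 949 and 784 CPM (log2 ratio −0.28), highest in *Aire*+/+ cells after anti-PD1. Lag3, another inhibitory receptor, was at 754, 909, 935 and 841 CPM (−0.15). Of 15 inhibitory receptor genes, Klrg1 fell (−0.74) and the other 14 were within 1.5-fold, with a median of −0.15. Among all tested genes 1.1% rose and 0.988% fell. Klrg1 had few UMIs, at 7.75 CPM in *Aire*+/+ and 4.63 CPM in *Aire*-/- cells after anti-PD1, and was within 1.5-fold without cycling cells (−0.57) and without the 5% deepest barcodes (−0.52). Tigit was at 195, 216, 295 and 219 CPM (−0.43), high in *Aire*+/+ cells after anti-PD1 alone. The costimulatory receptor Tnfrsf9, also known as 4-1BB, was at 1266, 1370, 1327 and 1129 CPM (−0.23), and the early activation marker Cd69 at 531, 458, 561 and 636 CPM (0.18). Cd7, a costimulatory surface protein of T and NK cells, was the exception among 14 costimulatory genes. It was at 27.3, 29.2, 25.4 and 59.9 CPM, so the first 3 libraries were alike and *Aire*-/- cells after anti-PD1 were high (1.24, 1.10 to 1.38). It was found in 16.7% of *Aire*-/- and 11.3% of *Aire*+/+ cells, and after thinning in 10.7% (9.44 to 12.2) and 5.61% (4.66 to 6.69), against 0% in macrophages of both.

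Of 20 transcription factors of effector and exhausted cells, 16 were below 0, 2 fell and 0 rose, with a median log2 ratio of −0.14. Of all 8808 genes, 4671 were below 0, 0.988% fell and 1.1% rose. In the other pairs the median was 0.08 after isotype antibody (12 of 19 above 0), −0.03 in the CD45+ sort (7 of 19) and 0.29 in spleen (13 of 15). Of all genes, 3892 of 8999, 2836 of 5029 and 5167 of 8124 were above 0 in these pairs. The pair that fell was Prdm1 and Ikzf2, the Helios gene, at 57.1, 38.2, 52.0 and 33.0 CPM (−0.66), low in both *Aire*-/- libraries. Eomes, a factor of memory and exhausted killers, was at 23.5, 18.7, 13.7 and 18.03 CPM (0.40). Among 28 cytokine receptor and JAK-STAT feedback genes, 2 rose and 1 fell, with a median of −0.02. Socs2, a feedback inhibitor of cytokine receptors, was at 21.4, 30.2, 20.3 and 36.8 CPM (0.86), and Pim1, a survival kinase that STAT5 induces, was at 135, 154, 179 and 284 CPM (0.66). Both were highest in *Aire*-/- cells after anti-PD1. Il18rap, a chain of the interleukin-18 receptor, fell (−0.61), but not with no choice of cells (−0.57). The interleukin-2 receptor chains Il2rb (−0.06), Il2rg (−0.07) and Il2ra (−0.21) were within 1.5-fold.

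Most genes of the interferon lists were above 0 in the anti-PD1 pair. Of 37 type I interferon response genes, 29 were above 0, 7 rose and 0 fell, with a median log2 ratio of 0.24. Over all 8808 genes of this pair the median was −0.01, with 4137 above and 4671 below 0, and 1.1% rose and 0.988% fell. In the isotype pair all 37 were above 0, 12 rose and 0 fell (median 0.49), where of all 8999 genes 3892 were above 0, 1.19% rose and 1.33% fell (−0.03). Of 34 interferon-gamma response and class I presentation genes, 28 were above 0, 6 rose and 0 fell (median 0.27), and in the isotype pair 32 were above 0 and 7 rose (0.23). In spleen 17 of 31 type I genes were above 0, 1 rose and 2 fell (median 0.06). Of the interferon-gamma genes there, 31 of 34 were above 0, 3 rose and 0 fell (0.28). Of all 8124 genes in spleen, 5167 were above 0, 2.35% rose and 1.11% fell (0.07). In the CD45+ sort 27 of 35 type I genes were above 0, 5 rose and 1 fell (0.22). Of the interferon-gamma genes in that sort, 30 of 31 were above 0, 4 rose and 0 fell (0.27). Of all 5029 genes in it, 2836 were above 0, 2.47% rose and 0.855% fell (0.03). Differences between the pairs were not tested.

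Cxcl10, the chemokine that draws Cxcr3+ cells, was at 90.2 CPM in *Aire*+/+ and 127 CPM in *Aire*-/- cells after isotype antibody, and at 98.9 and 278 CPM after anti-PD1. The *Aire*-/- cells after anti-PD1 stood far above the other 3, 2.81-fold above *Aire*+/+ cells (log2 ratio 1.49, 1.42 to 1.56). Macrophages held Cxcl10 in 58.9% (*Aire*-/-) and 55.5% (*Aire*+/+) of barcodes, so they are no background for it, and the part of their free RNA was not tested. They held Ifit1 in 46.5% and 48.0%, and Rsad2 in 54.6% and 57.6%. Ifit1, which binds foreign RNA, was at 77.0, 156, 113 and 204 CPM (0.85, 0.78 to 0.92). Rsad2, the antiviral enzyme viperin, was at 37.0, 65.8, 60.1 and 95.5 CPM (0.67, 0.57 to 0.77). In both, *Aire*+/+ cells after isotype antibody were lowest and *Aire*-/- cells after anti-PD1 highest. The ubiquitin-like Isg15 was at 321, 555, 446 and 618 CPM (0.47), and Ifit3 at 132, 222, 180 and 264 CPM (0.55), within 1.5-fold here but past it with thinned cells (0.67). Mx1, a GTPase that blocks viruses, was nearly even after anti-PD1, at 43.3, 60.9, 74.9 and 77.5 CPM (0.05). Of the 8 type I genes below 0, the lowest was Ifi27l2a, at 1784, 1872, 2211 and 1531 CPM (−0.53).

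The interferon-gamma list held Irf1, Igtp and Iigp1 among the 6 that rose. Irf1, a transcription factor of interferon responses, was at 107, 180, 144 and 254 CPM (log2 ratio 0.83, 0.76 to 0.89). Igtp, an immunity-related GTPase, was at 76.1, 132, 81.6 and 155 CPM (0.92, 0.84 to 1.004), and both *Aire*-/- libraries were above both *Aire*+/+ libraries. Iigp1, of the same family, was at 9.80, 14.8, 8.51 and 28.2 CPM (1.73), found in 287 *Aire*-/- and 109 *Aire*+/+ cells after anti-PD1. Macrophages held Iigp1 in 54.1% (*Aire*-/-) and 36.0% (*Aire*+/+) of barcodes, Igtp in 74.6% and 58.0%, and Irf1 in 79.5% and 71.8%, so here too they are no background. Classical class I genes were even after anti-PD1, H2-K1 at 3543, 4191, 4226 and 4175 CPM (−0.02) and H2-D1 at 2827, 3283, 3470 and 3392 CPM (−0.03).

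**Figure D2:**
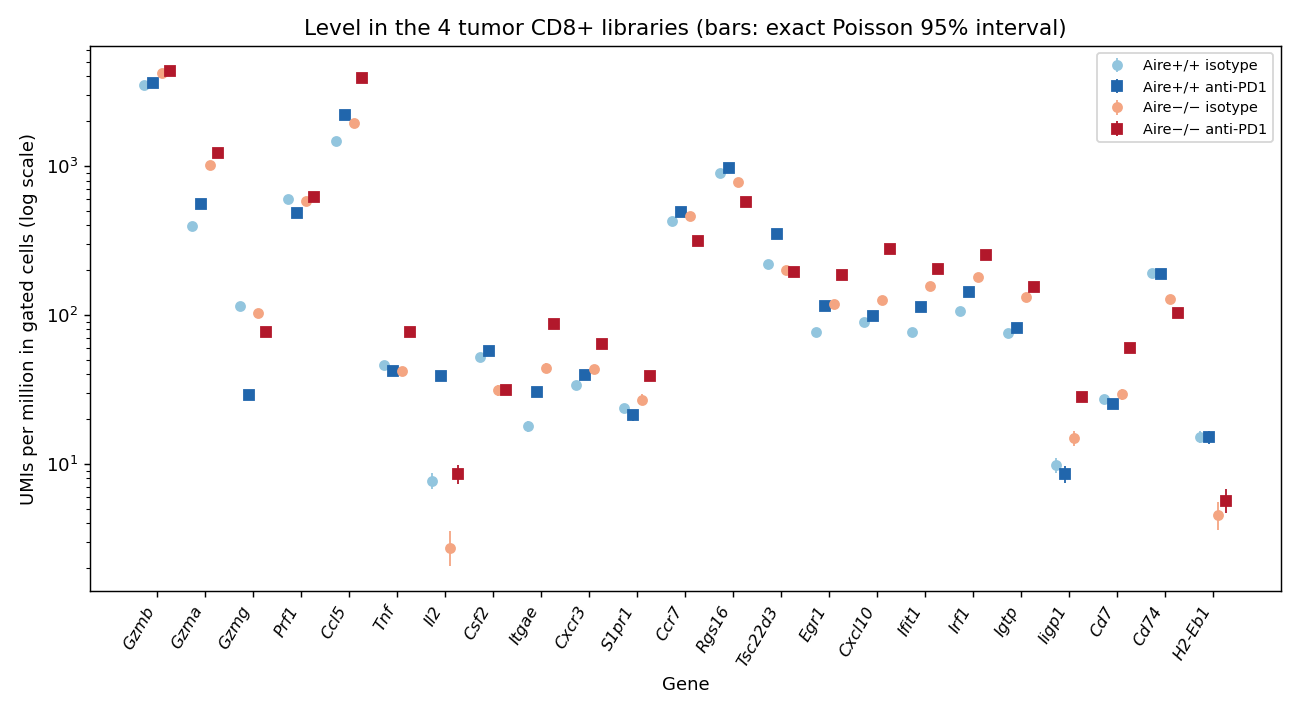
CPM (log scale) of selected genes in gated tumor CD8+ cells of the 4 libraries, *Aire*+/+ in blue and *Aire*-/- in red, circles for isotype antibody and squares for anti-PD1, with exact Poisson 95% intervals. Gzma and Itgae are high in both *Aire*-/- libraries, Tnf and Cd7 in *Aire*-/- cells after anti-PD1 alone, and Il2 in *Aire*+/+ cells after anti-PD1 alone.

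The promoters of the interferon genes were read for GAAANNGAA, letters within the element that interferon regulatory factors bind, on both strands. Windows of 300 bases, from 250 before to 50 after the start of each gene, came from RefSeq (GRCm38.p6). Of 32851 windows of all genes, 8.56% held the letters, and of 6788 tested genes with a window, 9.10%. Of the 31 type I interferon response genes with a window, 21 held them (67.7%), and of 27 interferon-gamma response and class I genes, 14 (51.9%). Among genes past 1.5-fold the letters were in 12 of 66 that rose (18.2%) and 10 of 51 that fell (19.6%), so their share was alike in both directions. The AP-1 letters TGACTCA were in 7 of the 66 (10.6%) and 4 of the 51 (7.84%), against 4.12% of tested genes and 5.20% of all windows. The STAT letters TTCNNNGAA, which can overlap GAAANNGAA, were in 7 (10.6%) and 2 (3.92%), against 8.28% and 8.30%. TGACGTCA, which CREB binds, was in 1 (1.52%) and 3 (5.88%), against 4.02% and 1.79%. The windows of 4 interferon genes that rose and of Gzma, chosen among those with a match, are printed 5′ to 3′ on the strand of the gene, with GAAANNGAA, or its reverse complement where the letters lie on the other strand, in capitals. They are chr5:92348840-92349139 on the minus strand for Cxcl10, chr19:34640639-34640938 on the plus strand for Ifit1, chr12:26456403-26456702 on the minus strand for Rsad2, chr11:58199306-58199605 on the plus strand for Igtp and chr13:113100932-113101231 on the minus strand for Gzma. Ifit1 holds 3 matches, of which 2 overlap, Gzma holds 2, and the others hold 1 each. The windows of Irf1, Ifi47, Cmpk2 and Samhd1, which also rose, do not hold GAAANNGAA, and the last 3 were named after their values were seen. A match is a description of the letters and shows no binding.
Cxcl10: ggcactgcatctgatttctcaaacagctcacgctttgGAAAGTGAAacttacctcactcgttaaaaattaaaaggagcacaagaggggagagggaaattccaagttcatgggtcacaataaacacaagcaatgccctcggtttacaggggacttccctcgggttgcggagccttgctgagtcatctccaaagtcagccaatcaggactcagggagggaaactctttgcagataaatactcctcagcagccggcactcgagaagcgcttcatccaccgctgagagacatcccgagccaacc
Ifit1: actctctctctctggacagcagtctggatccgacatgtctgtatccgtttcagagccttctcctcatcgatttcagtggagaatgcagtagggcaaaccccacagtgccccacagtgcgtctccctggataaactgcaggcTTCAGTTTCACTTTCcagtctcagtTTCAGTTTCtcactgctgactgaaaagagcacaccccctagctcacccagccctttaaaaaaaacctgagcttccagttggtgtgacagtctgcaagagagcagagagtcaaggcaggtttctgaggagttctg
Rsad2: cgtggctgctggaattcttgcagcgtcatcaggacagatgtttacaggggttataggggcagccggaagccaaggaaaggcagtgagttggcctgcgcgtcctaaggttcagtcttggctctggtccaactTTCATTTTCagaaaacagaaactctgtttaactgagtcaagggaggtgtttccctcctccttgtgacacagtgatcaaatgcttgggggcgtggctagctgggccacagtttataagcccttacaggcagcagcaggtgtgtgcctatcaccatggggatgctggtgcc
Igtp: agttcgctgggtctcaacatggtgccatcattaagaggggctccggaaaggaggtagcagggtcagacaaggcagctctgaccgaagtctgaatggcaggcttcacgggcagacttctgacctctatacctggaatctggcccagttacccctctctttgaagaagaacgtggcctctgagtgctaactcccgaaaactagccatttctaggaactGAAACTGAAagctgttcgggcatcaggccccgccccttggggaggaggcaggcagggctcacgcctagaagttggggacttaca
Gzma: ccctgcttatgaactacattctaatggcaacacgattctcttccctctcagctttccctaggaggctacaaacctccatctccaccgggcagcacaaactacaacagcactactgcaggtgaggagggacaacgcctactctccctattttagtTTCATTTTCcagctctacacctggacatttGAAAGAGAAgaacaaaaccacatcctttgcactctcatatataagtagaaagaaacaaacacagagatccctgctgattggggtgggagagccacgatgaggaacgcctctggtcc

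Most genes of proliferation and metabolism were within 1.5-fold. None of 42 cell cycle genes passed 1.5-fold, but 37 were below 0 (median log2 ratio −0.14). Of all 8808 genes, 4671 were below 0. Cells with cycling RNA, picked by a fixed number of UMIs of cell cycle genes, were 13.4% of *Aire*+/+ (12.01 to 15.0) and 12.5% of *Aire*-/- cells (11.1 to 14.01). These shares were not thinned, and *Aire*+/+ cells were the deeper (median 10123 against 8822 UMIs). Without the cycling cells the median of the list was 0.01. As they were picked by such genes, part of that change is built in. Of 25 glycolysis and hypoxia genes, 21 were below 0 and 2 fell (median −0.13), where 0.988% of all tested genes fell. Those 2 were Ankrd37, a target of hypoxia-inducible factor, at 45.8, 25.7, 31.4 and 19.9 CPM (−0.66), and Ndrg1, which hypoxia also induces, at 62.4, 52.7, 52.8 and 34.0 CPM (−0.63). Ndrg1 was within 1.5-fold with no choice of cells (−0.57). The glycolytic enzyme Gapdh was at 4674, 3660, 4068 and 3295 CPM (−0.30), lower in both *Aire*-/- libraries. The 32 oxidative phosphorylation genes were even (median 0.02, 0 rose, 0 fell), as were 14 heat shock genes (−0.08, 0 and 0). Of 13 Bcl2 family genes, 1 fell, Bbc3, which encodes the death inducer PUMA (−0.63), and the median was −0.12.

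Lectin receptors shared with NK cells held genes past 1.5-fold in both directions. Of 12 with enough UMIs, 2 rose and 2 fell (median log2 ratio −0.18), where 1.1% of all tested genes rose and 0.988% fell. Below 0 were 8 of the 12, and 4671 of all 8808 genes. In spleen 7 of 8 were above 0 and 5 rose (median 0.96), where 5167 of all 8124 genes were above 0 and 2.35% rose. Klrb1b, an inhibitory lectin, was at 27.5, 25.9, 25.2 and 11.6 CPM, low in *Aire*-/- cells after anti-PD1 alone (−1.12, −1.33 to −0.90). The Ly49 genes Klra3 and Klra7 rose (0.82 and 1.07), each in few cells, with 57 and 27 *Aire*-/- cells against 48 and 20 *Aire*+/+ cells. Klra3 was within 1.5-fold with the mean of per-cell CPM (0.56), and Klra7 with thinned cells (0.41). The abundant members Klrc1 (−0.14) and Klrd1 (0.18), which together form the NKG2A receptor, were nearly even.

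The 12 dendritic cell and class II markers summed to 273 CPM in *Aire*+/+ and 155 CPM in *Aire*-/- cells after anti-PD1, and to 279 and 177 CPM after isotype antibody, with Cd74 the most abundant in each. Clec9a, a defining marker of cross-presenting dendritic cells, was at 0 in all 4 libraries. Cd74, the invariant chain of class II molecules, was at 190, 127, 188 and 103 CPM (log2 ratio −0.86), H2-Aa at 19.95, 4.95, 18.8 and 8.16 CPM (−1.21) and H2-Eb1 at 15.1, 4.50, 15.1 and 5.65 CPM (−1.42). All 3 were lower in both *Aire*-/- libraries. Yet 7 *Aire*+/+ barcodes with more than 10 UMIs of H2-Aa, H2-Ab1 and H2-Eb1 held 924 of the 1350 UMIs of these genes (68.4%), and 5 such *Aire*-/- barcodes held 68 of 630 (10.8%). Without those barcodes H2-Aa was higher in *Aire*-/- cells (0.97), as was H2-Eb1 (1.03), and Cd74 was within 1.5-fold (−0.51). As the barcodes were picked by UMIs of H2-Aa, H2-Ab1 and H2-Eb1, a rise of the H2-Aa and H2-Eb1 ratios is built in. In the CD45+ sort of the same condition the ratio of H2-Eb1 was 5.10, the opposite direction. Of the 5 markers with enough UMIs, 3 fell and 0 rose (median −0.86), where 0.988% of all tested genes fell and 1.1% rose.

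Markers of other cell types were compared in the same way, and their part in the results above was not tested. Among all tested genes 1.1% rose and 0.988% fell. The 18 macrophage and monocyte markers summed to 946 CPM in *Aire*+/+ and 1079 CPM in *Aire*-/- cells after anti-PD1, led by Ctsd, a protease that T cells also express, with Adgre1 at 0 in *Aire*-/- cells and 0 of 4 tested markers past 1.5-fold. The 6 CD4 and regulatory T cell markers summed to 537 and 405 CPM, led by Tnfrsf4, which activated CD8+ cells also express. Foxp3, the defining regulatory T cell gene, had 74 UMIs in *Aire*+/+ and 27 in *Aire*-/- cells, while Cd4 had 33 and 40. Of the 4 of this list with enough UMIs, 1 fell, Ikzf2. The 8 NK cell markers summed to 146 and 189 CPM, led by Fcer1g, and 1 of 5 rose, Tyrobp (log2 ratio 0.73). Tyrobp, a signaling adapter of NK and myeloid cells, was at 4.21 and 6.997 CPM after anti-PD1, and its ratio was −1.27 with no choice of cells and −0.13 without cycling cells. Ncr1, which defines NK cells, had 1 UMI in *Aire*+/+ and 6 in *Aire*-/- cells. The 9 B cell markers summed to 18.9 and 23.6 CPM, led by Ighm, with Ms4a1, Pax5, Jchain and Mzb1 at 0 in both, and Ighm, the 1 tested, rose (0.67). The 6 plasmacytoid dendritic cell markers summed to 827 and 844 CPM, led by Bst2, which interferons induce in most cells, and 1 of 3 fell, Tcf4 (−0.67), which was within 1.5-fold with thinned cells (−0.26), with the mean of per-cell CPM (−0.51) and without the 5% deepest barcodes (−0.57). Neutrophil and mast cell markers had 19 UMIs in *Aire*+/+ and 22 in *Aire*-/- cells, with S100a8, Csf3r, Retnlg and Ngp at 0 in both and Mcpt8 leading. Tumor and stromal markers had 170 and 134 UMIs, led by Pecam1, with Krt8, Krt7, Col3a1 and hemoglobin genes at 0. Of 8 gamma-delta T cell markers, 3 had a place in the tables, with 3 UMIs in *Aire*+/+ and 0 in *Aire*-/- cells. None of these 3 lists had a gene with enough UMIs. Of the 6 sex-specific genes 1 had enough UMIs, Xist, at 246, 190, 214 and 187 CPM (−0.20).

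The highest ratios among the 8808 genes included genes outside the lists above. Adgrb2, an adhesion receptor best known from brain, was at 1.03 CPM in *Aire*+/+ and 11.0 CPM in *Aire*-/- cells after isotype antibody, and at 0.923 and 12.6 CPM after anti-PD1 (log2 ratio 3.77, 3.15 to 4.45). Tagap1, a T cell GTPase-activating protein gene with a near copy, Tagap, was at 1.03, 4.40, 0.923 and 8.25 CPM (3.16, 2.53 to 3.85). BC002163, a processed pseudogene, was at 10.2, 127, 11.5 and 98.0 CPM (3.09, 2.91 to 3.27). In these 3 genes the *Aire*-/- libraries were high and the *Aire*+/+ libraries low under both antibodies. BC002163 is a near copy of Ndufs5, a subunit of respiratory complex I, which was chosen after its values were seen and was at 102, 83.5, 95.8 and 85.5 CPM, so how reads were shared between the copies is uncertain. Dynlt1b, one of several copies of a dynein light chain gene on chromosome 17, was at 22.9, 49.6, 20.6 and 65.4 CPM (1.67, 1.52 to 1.82), while its copy Dynlt1a was even (0.22, −0.11 to 0.54). Dsc2, a desmosomal cadherin, was at 1.03, 0.495, 1.12 and 8.06 CPM and was high in *Aire*-/- cells after anti-PD1 alone (2.84, 2.26 to 3.47). It was found in 51 *Aire*-/- and 13 *Aire*+/+ cells. Erc1, a scaffold of vesicle release, rose in both pairs (1.41 here and 1.55 after isotype antibody), and the antisense RNA A930015D03Rik was at 3.33, 4.40, 2.85 and 7.83 CPM (1.46).

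The lowest ratios also held copies and transfer RNAs. Rnaset2b, of a ribonuclease family with near-identical copies on chromosome 17, was at 121, 49.8, 136 and 27.8 CPM (log2 ratio −2.29, −2.41 to −2.16). Cpm, a membrane carboxypeptidase, was at 9.37, 0.495, 11.3 and 2.36 CPM (−2.25, −2.71 to −1.82). Mitochondrial transfer RNAs fell as well, TrnS2 at 15.9, 2.72, 7.59 and 1.25 CPM (−2.60), TrnA at 24.6, 10.2, 19.7 and 8.43 CPM (−1.22) and TrnV at 15.5, 6.43, 10.8 and 4.82 CPM (−1.16). All of these were low in both *Aire*-/- libraries. Of 19 mitochondrial genes with enough UMIs, 6 fell and 0 rose, where 0.988% of all tested genes fell. The neuronal adhesion gene Dscam (−1.31), Ccdc184 (−1.20) and the ribosomal protein pseudogene Rps4l (−1.56) complete the 12 lowest with H2-Aa, H2-Eb1, Il2 and Spry2, named above. Of these, Rps4l was higher in *Aire*-/- cells in the isotype pair (0.41). Counts of near-identical copies can have been lost or split when reads were assigned, so the values of Rnaset2b, Dynlt1b and Tagap1 are uncertain too. Of 5 chromosome 17 paralogs with enough UMIs, 2 rose and 1 fell (median 0.22).

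Several of these genes are neighbours. On chromosome 4 between 129000000 and 135000000 (GRCm38), a window chosen after the values were seen, 75 genes had enough UMIs, of which 5 rose (Adgrb2, Iqcc, Sytl1, Ubxn11 and Wdtc1) and 1 fell (Snhg3). Of all 8808 genes, 1.10% rose and 0.988% fell. In the isotype pair 5 of 75 rose there and 1 fell. On chromosome 17 between 5000000 and 8000000, chosen in the same way, 4 of 15 rose (Dynlt1b, Rsph3b, Tagap1 and Tmem181a) and 2 fell (Rnaset2b and Synj2), and in the isotype pair 3 of 14 rose and 1 fell. Synj2 was within 1.5-fold with thinned cells (−0.30) and with the mean of per-cell CPM (−0.58). Iqcc, Sytl1, Ubxn11, Wdtc1, Snhg3, Rsph3b, Tmem181a and Synj2 were named after their values were seen. What the position of these genes has to do with their ratios was not tested, nor whether the DNA around them differs in strain of origin between the genotypes. Within 5 Mb on each side of Aire on chromosome 10, by contrast, 1 of 118 genes rose (Tbxa2r) and 2 fell (Gstt1 and Icosl), all named after their values were seen, and in the isotype pair 0 of 119 rose and 0 fell.

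The isotype pair, which shares no library with the anti-PD1 pair, compares the same genotypes without PD1 blockade. Of its 8999 genes with enough UMIs, 107 were at least 1.5-fold higher in *Aire*-/- cells (1.19%) and 120 lower (1.33%). Across 8762 genes the log2 ratios of both pairs had a Pearson correlation of 0.51 and a Spearman correlation of 0.38, a description across genes, which are not independent. Of the 97 genes that rose after anti-PD1, 91 could be compared, 74 were above 0 after isotype antibody, 39 were past 1.5-fold in the same direction and 2 in the other. Of all genes compared, 43.7% were above 0 there. Of the 87 that fell, all could be compared, 74 were below 0, 32 were past 1.5-fold in the same direction and 1 in the other. The shared genes are 40.2% of those that rose after anti-PD1 and 36.4% of those that rose after isotype antibody, and 36.8% and 26.7% of those that fell. Itgae (log2 ratio 1.32 after isotype antibody), Gzma (1.36), Ifit1 (1.01) and Igtp (0.79) were past 1.5-fold in both pairs. Tnf (−0.13), Cd7 (0.10), S1pr1 (0.19), Ccr7 (0.12), Rgs16 (−0.20), Tsc22d3 (−0.15) and Cxcl10 (0.49) were within it after isotype antibody, and whether their ratios differ between the treatments was not tested.

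The same choice of cells in other libraries gave 206 *Aire*+/+ and 701 *Aire*-/- cells in the CD45+ sort of anti-PD1 tumors, and 2880 and 2548 in the CD8+ sort of anti-PD1 spleens. Whether these came from the same animals as the tumor CD8+ cells is not stated. In the CD45+ sort, 124 of 5029 genes were at least 1.5-fold higher (2.47%) and 43 lower (0.855%), and in spleen 191 of 8124 (2.35%) and 90 (1.11%). Of the 97 genes that rose in the tumor CD8+ sort, 47 could be compared in the CD45+ sort, where 45 were above 0, 29 past 1.5-fold in the same direction and 2 in the other. Of the 87 that fell, 28 could be compared, 22 were below 0, 11 past 1.5-fold in the same direction and 5 in the other. Markers of other cell types also differed in this sort. Dendritic cell and class II markers summed to 261 CPM in *Aire*+/+ and 1328 CPM in *Aire*-/- cells. Neutrophil and mast cell markers summed to 41.5 and 1.22 CPM, and Lyz2 was at 347 and 91.5 CPM. Their part in these counts was not tested. In spleen, 61 of the genes that rose could be compared, 50 were above 0, and 16 were past 1.5-fold in the same direction and 0 in the other. Of those that fell, 40 could be compared there, 26 were below 0, and 11 were past 1.5-fold in the same direction and 4 in the other. Spleen cells leaned higher in general, with 64.7% of all compared genes above 0, and 56.4% in the CD45+ sort. The Pearson correlation across genes was 0.40 with the CD45+ sort (5019 genes) and 0.25 with spleen (7760 genes).

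Of 4836 genes with enough UMIs in all 4 pairs, 38 rose in the anti-PD1 tumor CD8+ sort, and 9 of them were past 1.5-fold in the same direction in all 4. They are Gzma, Lmna, Iigp1, BC002163, Dynlt1b, Tmem181a, Sytl1, Ubxn11 and Wdtc1, of which 5 lie in the named windows of chromosomes 4 and 17. As those windows were chosen after the values were seen, this count is no independent sign of grouping. Gzma was at 1.15, 1.36, 1.19 and 2.49 in the anti-PD1 tumor, isotype tumor, CD45+ and spleen pairs, on the log2 scale, and Lmna at 0.65, 0.75, 1.005 and 2.37. Both were highest in spleen. Of 19 genes that fell and could be compared in all 4, 2 did so in each, Rnaset2b and Snhg3. They lie in the same windows, to which the same limit applies.

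**Figure D3:**
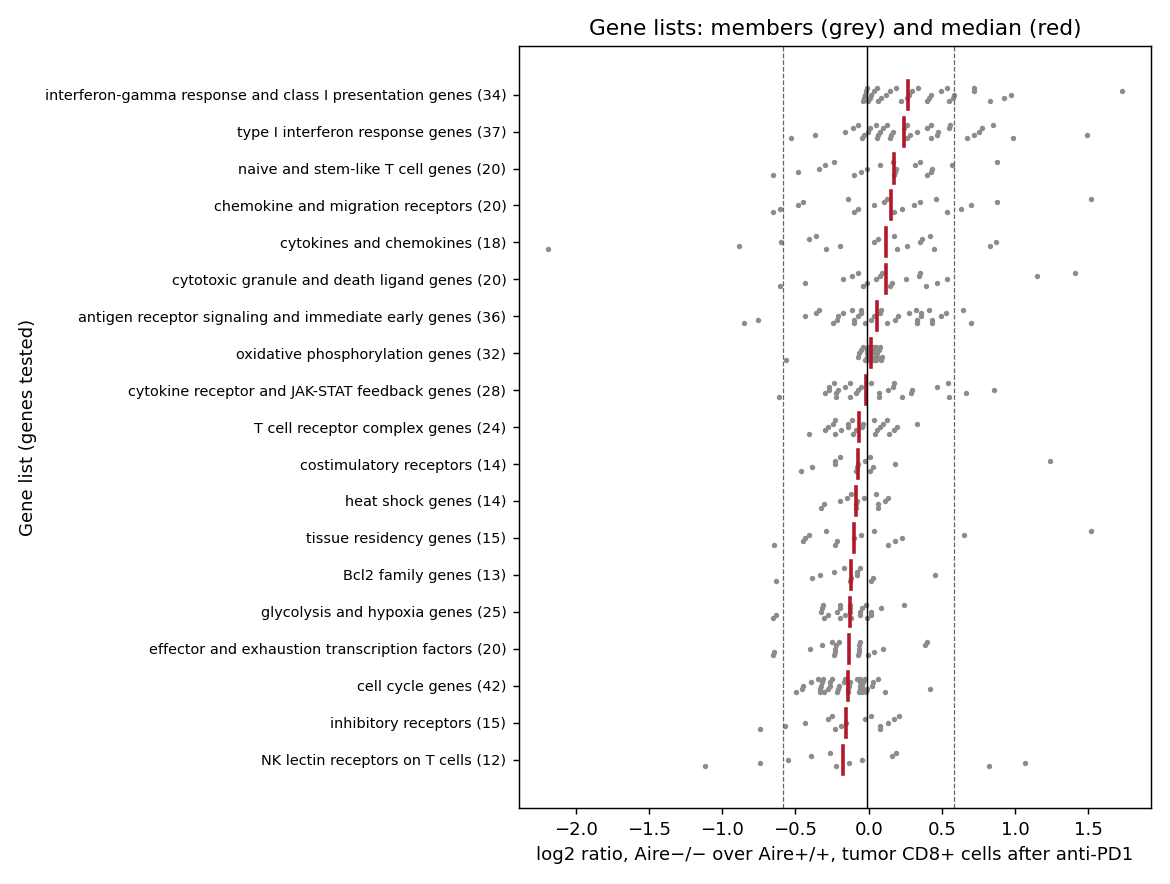
Log2 ratios, *Aire*-/- over *Aire*+/+, of the members (grey points) of 19 gene lists in tumor CD8+ cells after anti-PD1, with each list's median in red, 1.5-fold as dashed lines and the number of genes with enough UMIs in brackets. The solid line is the median of all genes, −0.01; the interferon lists have the highest medians, 0.27 and 0.24, and the NK lectin receptors the lowest, −0.18.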

How the data were processed

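The files deposited hold raw UMI counts, whole numbers by gene and cell barcode, made by Cell Ranger. The labels name a 3′ single-cell kit. The study also describes a 5′ kit with T cell receptor libraries for cells sorted the same way, and names a Cell Ranger version beside that kit alone. One of its tables counts cells with receptor sequences in CD8+ tumor libraries of 2222 and 2214 barcodes, the numbers found here, so that paragraph may cover these libraries. Gene positions are on GRCm38. Rows that share a symbol were summed, which turned 25127 rows into 24496 symbols, with 327 symbols on more than 1 row. The members and lists were chosen with earlier results of these data known.

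UMIs of the chosen cells were summed per gene and scaled to CPM by their total. Genes that reached 200 UMIs in a pair of libraries together were compared, and a gene at least 1.5-fold apart was counted as higher or lower. No doublets were removed, and no chosen cell of the anti-PD1 tumor CD8+ libraries failed the study's filter of 200 genes and 20% mitochondrial UMIs. The named genes are the 12 highest and 12 lowest ratios, in each of the 30 gene lists the 4 largest ratios and the 2 most abundant members, and genes picked from those the study names for tumor CD8+ T cells, 153 in all. Its supplementary tables name more that were not picked. For shares of cells, macrophages were barcodes of the CD45+ sort with at least 10 UMIs of C1qa, C1qb and C1qc and 0 of Cd3d, Cd3e and Cd3g. Cells were thinned to 3000 UMIs with random seed 1. Intervals have a level of 95%. The calculation was checked on simulated counts. Alternatives covered scaling, the minimum of UMIs, the fold, the choice of cells, thinning, the mean of per-cell CPM, cycling cells, cells with markers of other types, the deepest barcodes and, added later, barcodes rich in the gene itself or in class II RNA. Python 3.11.15, numpy 2.4.6, scipy 1.17.1 and matplotlib 3.10.9 were used.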

Additional observations from a re-analysis of the deposited data

How the results depend on the processing

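Within the anti-PD1 tumor CD8+ sort no paired analysis was possible because each genotype has 1 library of pooled mice there. For that reason no library could be left out. An analysis paired over treatments, tissues and sorts was not run. Of 97 higher and 87 lower genes, a minimum of 50 UMIs gave 265 and 225, a minimum of 1000 gave 39 and 26, and no minimum gave 1079 and 894. The genes compared were then 10488, 4895 and 13257, and why the calls changed more than the number of genes was not tested. With 2-fold in place of 1.5-fold there were 27 and 15, by construction. With no choice of cells 203 genes were lower, and with cells thinned to 3000 UMIs 56 were lower, among 5705 genes. For the former the cause was not tested. Under each of the other alternatives run on the counts, including both scalings, both counts were within 1.5 times the main ones, at 91 to 138 higher and 79 to 114 lower.

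Of the values past 1.5-fold, few changed sign. With no choice of cells Tyrobp was at −1.27, and without cycling cells at −0.13. The cause was not tested. Without barcodes over 10 class II UMIs, H2-Aa was at 0.97, H2-Eb1 at 1.03 and the median of the dendritic cell and class II list at 0.11. Without the 10 barcodes with the most UMIs of each gene, Gzmg was at −0.0815, H2-Aa at 0.97 and H2-Eb1 at 1.11, and the cause was not tested. Il2 was then at 0.69, from 5 and 7 UMIs, too few to give a direction. H2-Ab1, within 1.5-fold at −0.40, was then at 0.27, and other values within 1.5-fold changed sign too. These alternatives, 2 in number, were chosen after seeing the data. Each removes barcodes for UMIs of genes whose ratios are then given, so part of the shift is built in. Of 176 genes followed, 90 moved outside their counting interval with thinned cells and 86 with the mean of per-cell CPM, and 15 and 16 of the 176 changed their side of 1.5-fold.

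Depth limits genes near 200 UMIs, whose ratios have wide intervals, and rare genes such as Aire, which cannot be compared. The intervals hold for counting error in these libraries, so differences between mice cannot be told apart from genotype. Counts per gene show neither isoforms nor protein.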
